A study of Homo sapiens with 4 samples.

Results

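Binding of the T-box transcription factor TBX3 to the genome was examined at 41 genes of the cyclic AMP (cAMP) pathway in 501mel cells, an established human melanoma line. The genes were taken by name: 10 adenylyl cyclases, 16 phosphodiesterases, 6 subunits of protein kinase A (PKA), 6 genes of the CREB family and its CRTC coactivators, and 3 genes for a G protein subunit and the cAMP-activated exchange factors. They are 41 of 19974 protein-coding genes on chromosomes 1 to 22 and X. Chromatin immunoprecipitation and sequencing (ChIP-seq) used an antibody (HA, clone 12CA5) against the HA tag of the protein, labelled TBX3-3xHA, in 2 ChIP samples. The other 2 samples were inputs, chromatin not passed over the antibody, and are not analysed here. All 4 samples carry the same cell line label, and the labels name neither a treatment nor the level of the tagged protein beside that of the cell's own TBX3. They do not say whether the replicates came from separate cultures, so the spread between them may be technical. Peak lists hold no expression values, so the melanoma label was not set against marker genes.

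cAMP is the second messenger of MC1R, the receptor that switches melanocytes towards dark eumelanin. The G protein subunit encoded by GNAS activates adenylyl cyclases, which make cAMP, and phosphodiesterases break it down. cAMP frees the catalytic subunits of PKA from their regulatory subunits, and PKA then phosphorylates CREB1 and its relatives, which with CRTC coactivators turn on cAMP-responsive genes such as MITF in melanocytes. The exchange factors encoded by RAPGEF3 and RAPGEF4 (EPAC1 and EPAC2) bind cAMP independently of PKA.

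Each deposited list gives peak summits of a single base, with a score and the gene of the nearest transcription start site (TSS) in the human build hg38. A peak was assigned to a member when that gene was a member. The lists, of 32479 peaks in replicate 1 and 40494 in replicate 2, held 133 member peaks in replicate 1 and 175 in replicate 2, each over 27 genes. A shared site is a pair of summits, each the nearest to the other and at most 200 bp apart. Of 22702 shared sites in the genome, 102 belonged to members, and in all 102 both lists named the same gene. They made up 76.7% of the member peaks of replicate 1 and 58.3% of those of replicate 2, beside 69.9% and 56.1% of all peaks. The summits of a member site lay a median of 28 bp apart, the same as over all shared sites, and at most 169 bp. The nearest summits of the 2 lists at a member that were left unpaired lay 204 bp apart. The read depth is unknown and the scale of the score is not stated, so scores are given by list, with a rank of 1 for the highest score in that list.

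Shared sites were found at 25 of the 41 genes (61.0%), and at 9 of them (22.0%) a shared site lay within 10 kb of the TSS. Counted the same way, 28.5% of all protein-coding genes had a shared site and 10.0% had one within 10 kb. Members are long genes, with a median span of 127.7 kb against 24.2 kb for all protein-coding genes. Of the 26 members of at least 100 kb, 20 had a shared site (76.9%) and 8 had one within 10 kb (30.8%), beside 57.1% and 17.6% of all genes of that length. Of the 15 shorter members, 5 had a shared site (33.3%), beside 22.8% of shorter genes, and only CREM had one within 10 kb (6.67%), beside 8.51%. The division at 100 kb matches length only roughly: members were longer than all genes in both classes, with a median span of 217.6 kb against 175.0 kb in the longer class and 52.9 kb against 17.5 kb in the shorter. How far length accounts for the members' shares was not tested, and the counts in the shorter class are small.

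**Figure D1:**
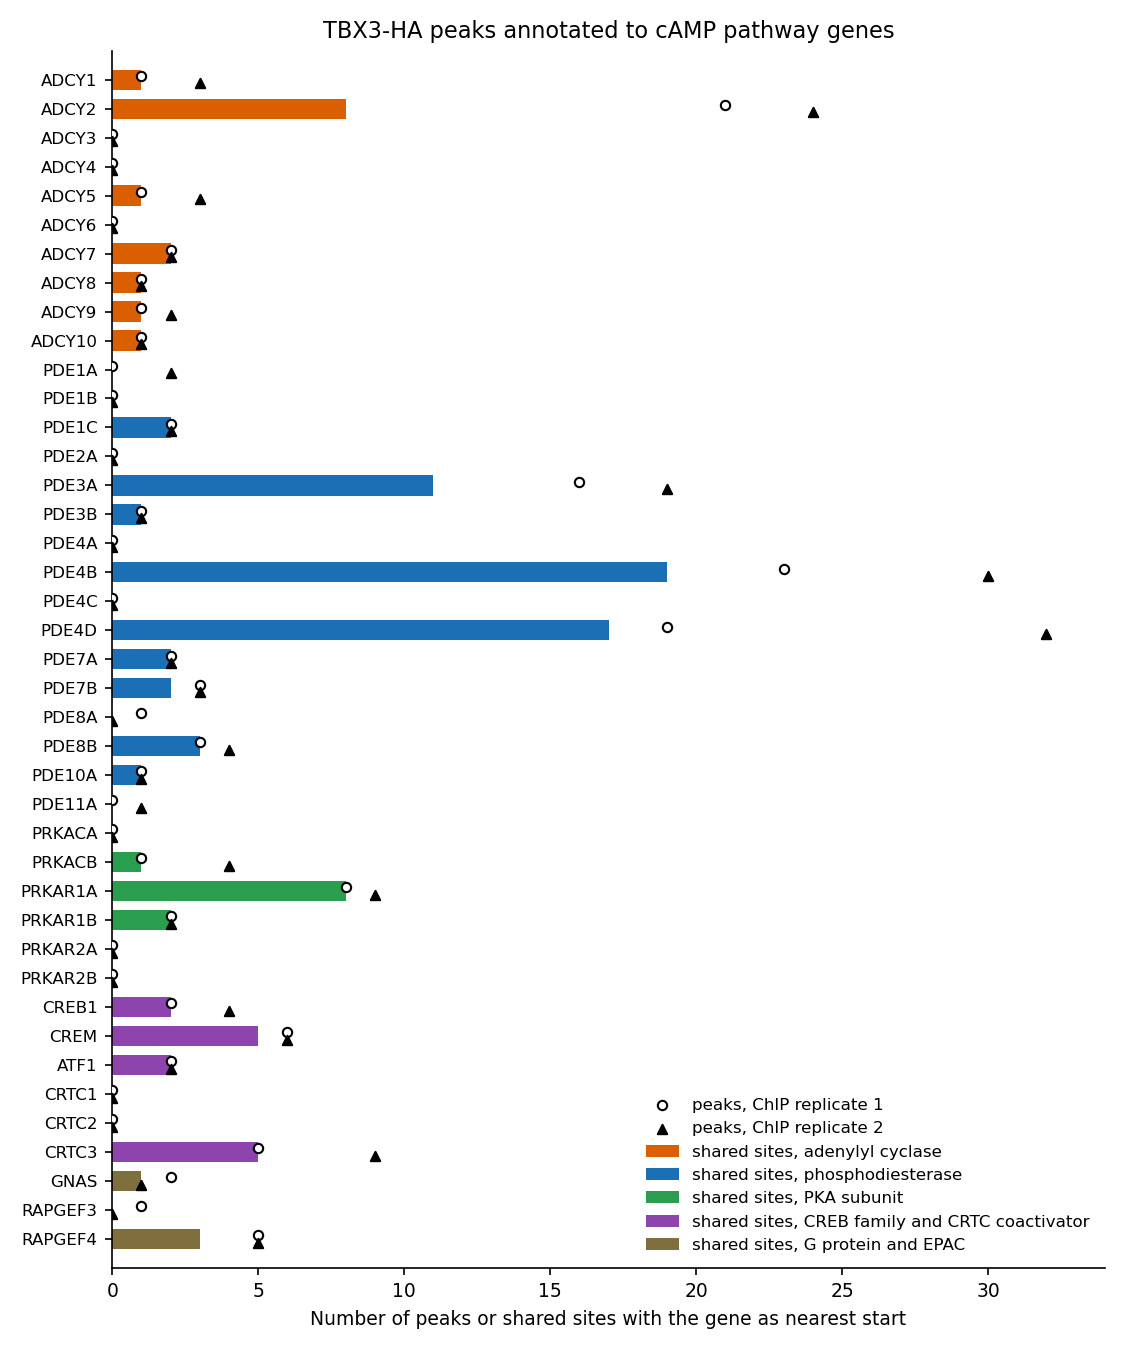
Horizontal bars give the number of shared sites for each of the 41 genes, coloured by role, with open circles and black triangles for the peaks of ChIP replicates 1 and 2. PDE4B (19 shared sites), PDE4D (17) and PDE3A (11) stand above the other genes, and 16 genes have no bar.

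The sites were unevenly spread over the genes. PDE4B, PDE4D and PDE3A together held 47 of the 102 sites (46.1%). At least 5 shared sites were found at 7 members (17.1%), beside 2.68% of all protein-coding genes. Among genes of at least 100 kb the share was 23.1% of members and 10.0% of all. In the whole genome only 15 protein-coding genes had as many shared sites as PDE4B or more, PDE4B included. Of the other members with a site, 9 had a single one and 9 had 2 or 3.

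Phosphodiesterases carried most of the sites, 58 at 9 of 16 genes, and 16 of these lay within 10 kb of a TSS at 6 genes. For comparison, 28.5% of all protein-coding genes had a shared site and 10.0% a near one. Among genes of at least 100 kb, as many phosphodiesterase genes are, these shares were 57.1% and 17.6%. Neither background is matched to the 16 genes, because PDE1B, PDE2A, PDE4A and PDE4C span under 100 kb. None of those had a shared site. All 9 phosphodiesterases with a site, and so the 6 with a near one, span at least 100 kb. Among the longer phosphodiesterases alone, both shares were therefore higher than 9 of 16 and 6 of 16. How far length accounts for them was not tested. PDE4B and PDE4D encode cAMP-specific enzymes of the PDE4 family, the targets of rolipram, and each makes long and short forms from several promoters. Their 2 paralogues, PDE4A and PDE4C, had no peak in either list. The spans differ, however: PDE4B covers 582.1 kb and PDE4D 1553.1 kb, against 52.9 kb for PDE4A and 47.4 kb for PDE4C. Counted inside the gene span, PDE4B held 30.9 shared sites per Mb and PDE4D 10.9, beside 7.34 over all protein-coding genes.

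The strongest PDE4B sites lay near internal starts. PDE4B spans 65792510 to 66374579 on chromosome 1. The site with the lowest rank sum had summits at 66350314 in replicate 1 and 66350305 in replicate 2, in intron 1 of 9 of NM_001037339 and 4064 bp upstream of the nearest start in replicate 1. It scored 304.0 and 463.8, ranks 223 and 185, which placed it at 192 of the 22702 shared sites by rank sum. The next had summits at 66340176 and 66340162 in the same intron, 8068 bp downstream of the start at 66332108, with scores of 239.0 and 321.4 (ranks 390 and 480). Close to that start the sites were weaker. A site in the 5′ untranslated exon, 241 bp downstream of it, scored 42.3 and 60.8, one 1166 bp upstream scored 9.28 and 31.1, and one 4154 bp downstream scored 6.43 and 8.35. Thus 4 of the 5 PDE4B sites within 10 kb belonged to this single start, and the strongest of all belonged to a start at 66354378. The other 14 sites ran from a position 170.9 kb into the gene to one 644.2 kb from its 5′ end, past the end of the span. The first 170.9 kb of the gene held no shared site.

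The sequence before that internal start is shown because 4 of the PDE4B sites, over both sides of it, are assigned to it. The stretch is chr1:66331858-66332138 of GRCh38.p14 (plus strand, RefSeq), from 250 bases before the start to 30 after it. The letters of the T-box half-site, the M-box and the full cAMP response element, spelled out below, were not in it. Its content of G and C was 39.5%, beside a median of 58.7% over all RefSeq promoter windows. The summits themselves lay 241 and 228 bp after the start, outside the stretch.
PDE4B internal start: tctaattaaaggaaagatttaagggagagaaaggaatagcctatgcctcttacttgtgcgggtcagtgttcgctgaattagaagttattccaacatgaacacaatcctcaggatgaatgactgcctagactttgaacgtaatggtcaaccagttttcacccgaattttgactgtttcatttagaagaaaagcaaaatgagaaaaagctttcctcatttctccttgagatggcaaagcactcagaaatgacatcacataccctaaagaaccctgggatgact

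PDE4D spans 58969038 to 60522128 on chromosome 5, on the minus strand. Of its sites, 2 were annotated to promoters. At the stronger, summits at 59039508 and 59039507 lay 4 and 5 bp from the deposited start at 59039512, with scores of 106.0 and 136.8 (ranks 1833 and 2269). A site in the 5′ untranslated exon of NM_001197220 scored 9.28 and 9.86, and 3 sites around a start at 59768612, the other promoter, had scores between 6.85 and 10.8 in the first list and between 15.2 and 19.2 in the second. The site at 59039508 thus had the highest score of the 5 in both lists. The 12 remaining sites were spread from 20.1 kb before the gene to beyond its 3′ end. Of these, the site with the lowest rank sum scored 97.6 and 145.6, with summits at 60526654 and 60526655 near the end of the noncoding gene PART1, 38556 bp upstream of a PDE4D start. The promoter stretch is shown because both summits fall inside it. It is chr5:59039482-59039726 (GRCh38.p14, minus strand, RefSeq), and it runs from 250 bases before the RefSeq start at 59039476 to 30 bases past the deposited start. None of the 3 motifs had its letters there, and G and C made up 67.8% of it.
PDE4D promoter: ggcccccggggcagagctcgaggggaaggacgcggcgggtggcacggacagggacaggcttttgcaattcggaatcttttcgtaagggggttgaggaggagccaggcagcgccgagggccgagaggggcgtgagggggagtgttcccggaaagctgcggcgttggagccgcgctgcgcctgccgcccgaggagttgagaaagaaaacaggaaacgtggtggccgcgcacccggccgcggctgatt

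**Figure D2:**
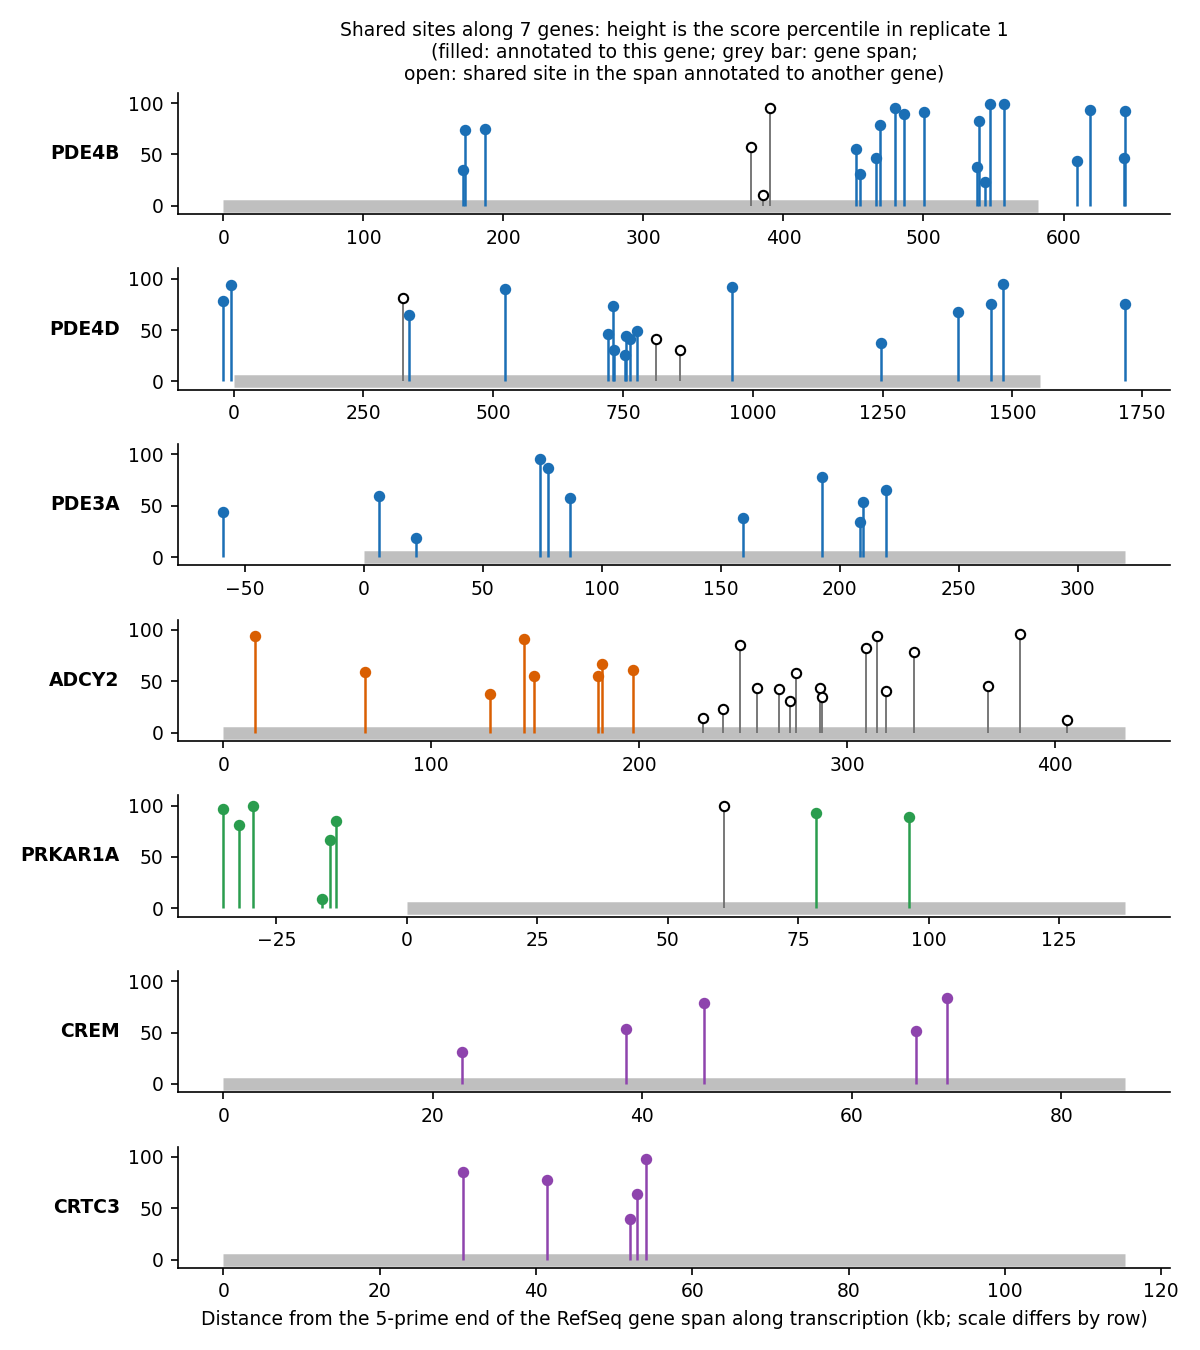
Each row is a gene, with the distance from its 5′ end in kb on the horizontal axis and the score percentile of replicate 1 (0 to 100) as the height of each shared site. Filled points are sites annotated to the gene and open points are sites inside its grey span that the deposited annotation gives to another gene, 16 of them in the distal part of ADCY2.

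PDE3A, a phosphodiesterase inhibited by cGMP, had 11 shared sites, 10 of them in introns and 3 within 10 kb of a start. The strongest lay in an LTR element in intron 1 of 15, with summits at 20442501 and 20442526 on chromosome 12, 73256 bp from the start, and scores of 125.4 and 173.1 (ranks 1385 and 1612). The 3 sites within 10 kb were weaker. Their replicate 1 scores ran from 8.54 to 16.6, and those of replicate 2 from 8.35 to 34.3. Its paralogue PDE3B, of 255.5 kb against 320.0 kb, had a single shared site, in an LTR element 40867 bp from the start, with scores of 10.0 and 21.1. These genes of similar length thus held very different numbers of sites.

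The other phosphodiesterases had few sites, but 3 of them within 10 kb of a start. At PDE7A, a cAMP-specific enzyme, summits at 65842066 and 65842077 on chromosome 8 lay in the promoter, 332 and 343 bp upstream of the deposited start. They lay just outside the RefSeq span of the gene, which ends at 65842064. Their scores were 70.0 and 83.5 (ranks 3286 and 4367). At PDE8B, summits at 77172405 and 77172427 on chromosome 5 lay 7852 bp upstream of an internal start, with scores of only 7.12 and 6.91. At PDE7B, summits at 135853421 and 135853399 on chromosome 6 lay in intron 1 of 12, 1725 bp downstream of the start, with scores of 8.54 and 14.8. Each of these 3 genes had a further site or sites beyond 10 kb, the highest of which, in intron 3 of 18 of PDE8B, scored 35.2 and 53.5. PDE1C, which is activated by calmodulin, had 2 sites over 811.4 kb. The one with the lower rank sum lay 135669 bp from a start and scored 13.2 and 35.3. The other, 19509 bp from a start, scored 18.4 and 17.4. PDE10A had a single site over 660.8 kb. PDE1A, at 576.8 kb about as long as PDE4B, had 2 peaks in replicate 2 and none in replicate 1. PDE11A had 1 peak in replicate 2, PDE8A 1 in replicate 1, and PDE1B and PDE2A had none.

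**Figure D3:**
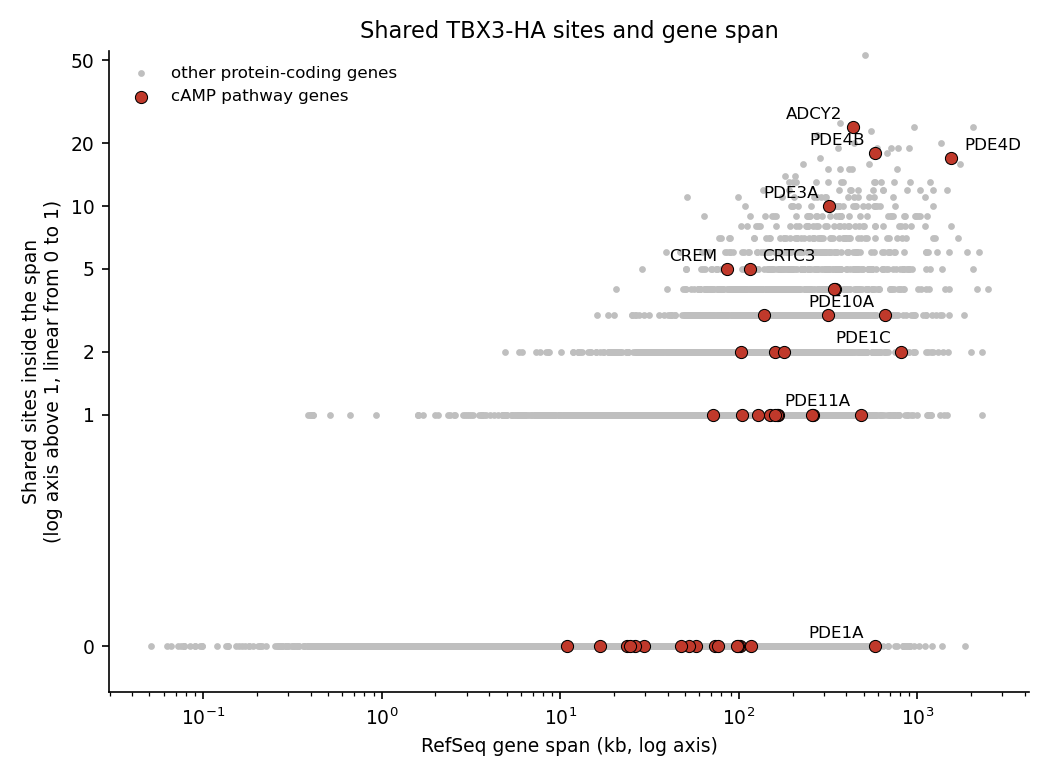
Points are protein-coding genes, with the RefSeq span in kb (log axis) against the number of shared sites inside the span (log axis above 1, linear from 0 to 1); the 41 cAMP pathway genes are red. ADCY2 holds 24 sites, PDE4B 18 and PDE4D 17, whereas PDE1A, of 576.8 kb, holds 0.

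Adenylyl cyclases had 15 shared sites at 7 of 10 genes, and at 1 of the 10, ADCY5, a site lay within 10 kb. That 1 in 10 equals the 10.0% of all protein-coding genes with a near site. All cyclases but ADCY4, ADCY6 and ADCY7 span at least 100 kb, and of all genes of that length 17.6% had a near site. A site at any distance was found at 28.5% of all genes and 57.1% of those of at least 100 kb. ADCY5 is a cyclase inhibited by calcium, and its site lay in intron 1 of 20 on chromosome 3, where the summits, 123440238 and 123440362, were 124 bp apart and the first was 8307 bp from the start. Its scores of 7.55 and 34.4 placed it at rank 22968 in one list and 10282 in the other. ADCY2, a cyclase abundant in brain, had 8 of the 15 sites, none closer than 15022 bp in replicate 1. The strongest lay in intron 1 of 24 on chromosome 5 (summits 7411252 and 7411244), at 15022 bp from the start, with scores of 104.6 and 106.4 (ranks 1877 and 3220). ADCY9 had 1 site, 63030 bp into the gene, with scores of 63.1 and 78.2. The ADCY8 site, 237686 bp from the start, scored 13.2 and 27.0, and that of ADCY10, the soluble cyclase, scored 10.0 and 26.0 at 38600 bp. Sites of ADCY1, ADCY7, ADCY8 and ADCY10 scored at most 13.2 in replicate 1 and 27.0 in replicate 2, and both ADCY7 sites lay inside the neighbouring gene TENT4B. ADCY3, ADCY4 and ADCY6 had no peak in either list.

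Most peaks assigned to ADCY2 were found in 1 list only. It had 21 peaks in replicate 1 and 24 in replicate 2, of which 13 and 16 had no partner. Scores of the unpaired peaks ran from 2.81 to 10.0 in the first list and from 2.58 to 13.1 in the second. The gene covers 433.9 kb, 7396138 to 7830081, and its span held 24 shared sites. Of these, 16 were annotated to C5orf49, whose start is the nearest to them at 49339 to 224694 bp. Those 16 had a median score of 10.8 in replicate 1 and 17.0 in replicate 2. Over the whole span 53.3% of 45 replicate 1 peaks and 43.6% of 55 replicate 2 peaks had a partner, below the 69.9% and 56.1% of all peaks. The density was 55.3 shared sites per Mb. A density of at least 30 per Mb was reached by 4 of the 26 members of at least 100 kb (15.4%), beside 4.8% of all genes of that length, and these were ADCY2, CRTC3, PDE3A and PDE4B.

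Among PKA subunits, most sites lay at PRKAR1A, which encodes the type I alpha regulatory subunit, the tumour suppressor lost in Carney complex. It had 8 of the 11 sites, and each of its 8 replicate 1 peaks had a partner. The strongest member site in both lists was among them, with summits at 68384069 and 68384105 on chromosome 17 and scores of 358.6 and 507.5 (ranks 141 and 138, place 133 of all shared sites). It lay 29554 bp upstream of the nearest PRKAR1A start, at 68413623, and farther from a second PRKAR1A start at 68511780. Which start the cells use cannot be read from peak lists. The site was inside intron 8 of 11 of the neighbouring gene ARSG, a sulfatase gene. So was the next, with summits at 68378429 and 68378431 and scores of 153.7 and 184.1. In all, 6 of the 8 sites lay in ARSG. The other 2 were in intron 1 of PRKAR1A, and one of them, in an LTR element, scored 90.6 and 155.5. The other lay 1923 bp upstream of the start at 68511780, with summits at 68509857 and 68509887. It scored 62.4 and 80.5 (ranks 3763 and 4544). A further shared site in intron 1 of PRKAR1A, with summits at 68474482 and 68474499, was annotated to WIPI1, 16958 bp away. It scored 463.5 and 537.3 (ranks 60 and 105), more than any site annotated to a member.

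PRKAR1B, the type I beta subunit, had 2 sites. One, in intron 4 of 10 with summits at 675032 and 675109 on chromosome 7, scored 98.6 and 160.5 (ranks 2095 and 1812), and the other lay in the neighbouring gene DNAAF5. PRKACB, a catalytic subunit, had a single weak site in an LTR element, with scores of 6.32 and 5.55. No peak was assigned to PRKACA, the main catalytic subunit, or to the type II regulatory subunits PRKAR2A and PRKAR2B.

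**Figure D4:**
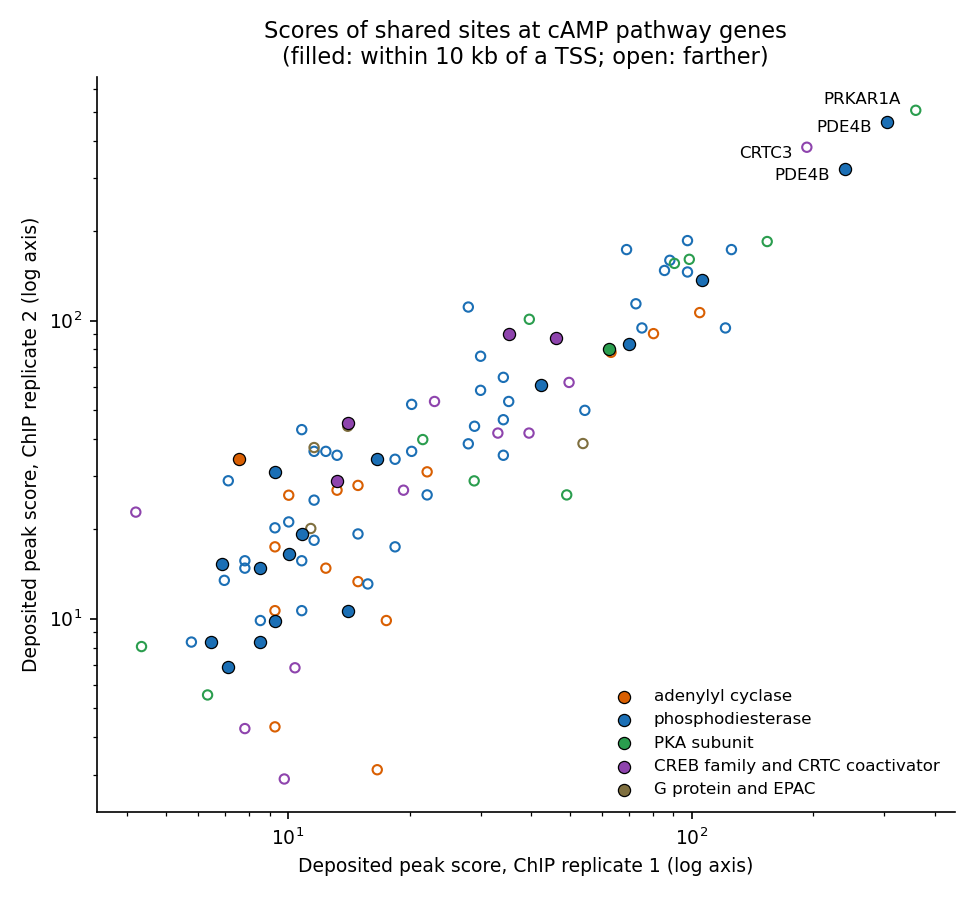
Each point is 1 of the 102 shared sites, with its deposited score in replicate 1 against that in replicate 2 (both log axes), coloured by role; filled points lie within 10 kb of a TSS. The 4 named points at upper right are the sites with the lowest rank sums, and 2 of them, both at PDE4B, are filled.

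CREM, which encodes activators and repressors that bind cAMP response elements, was the shortest of the 7 members with at least 5 sites. Its span of 86.1 kb on chromosome 10, from 35126846 to 35212958, held 5 shared sites, and 4 of these lay within 10 kb of 4 different starts. The site at an internal promoter had summits at 35195900 and 35195921, 2 bp upstream and 19 bp downstream of the start, with scores of 46.2 and 87.7 (ranks 5187 and 4106). A site in a DNA transposon in an intron, with summits at 35172730 and 35172765, scored 35.2 and 90.4 (ranks 6830 and 3941). The site 2204 bp upstream of another start, in an LTR element, scored 14.1 and 45.3, and one 2182 bp upstream of the start at 35195127, in a LINE, scored 13.2 and 29.0. The fifth, 11897 bp from a start, scored 7.82 and 4.28, the lowest of the gene in both lists.

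The internal CREM promoter is shown because both summits fall inside it and because it holds a full cAMP response element, in capitals. The stretch is chr10:35195652-35195932 (GRCh38.p14, plus strand, RefSeq), from 250 bases before the start at 35195902 to 30 after it. The element begins 50 bases before the start, 48 and 69 bp from the 2 summits.
CREM internal promoter: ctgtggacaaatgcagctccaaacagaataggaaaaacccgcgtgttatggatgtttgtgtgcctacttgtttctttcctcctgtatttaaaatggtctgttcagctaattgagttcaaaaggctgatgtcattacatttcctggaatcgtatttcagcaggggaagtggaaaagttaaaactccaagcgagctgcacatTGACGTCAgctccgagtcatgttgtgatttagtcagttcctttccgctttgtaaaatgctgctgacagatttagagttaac

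Promoters were searched for 3 motifs on both strands: the T-box half-site GGTGTGA, the M-box TCATGTG bound by MITF, and the full cAMP response element TGACGTCA, which reads the same on both strands. RefSeq windows of 250 bases before to 50 after a start were at hand for 35 of the 41 genes, 111 windows in all. The full cAMP response element was in 6 member windows, those of CREM, PDE4A, PDE7B and PRKAR1A, and in 1.85% of all 35116 windows. The T-box half-site was in 1 member window, that of RAPGEF3, and in 3.45% of all windows. The M-box was in 2, those of PDE2A and PRKACB, and in 2.92% of all. Windows of a gene overlap in part, so they are not independent, and these windows do not cover the sites in introns. At PDE7B the element, again in capitals, begins 155 bases before the RefSeq start and 1875 and 1853 bp from the 2 summits, in chr6:135851451-135851726 (plus strand), the stretch shown for comparison with CREM.
PDE7B promoter: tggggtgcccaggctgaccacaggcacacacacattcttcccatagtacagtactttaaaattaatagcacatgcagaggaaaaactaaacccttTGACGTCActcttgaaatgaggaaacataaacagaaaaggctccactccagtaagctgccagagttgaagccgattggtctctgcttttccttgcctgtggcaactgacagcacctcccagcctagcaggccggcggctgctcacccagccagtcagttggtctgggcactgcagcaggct

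CRTC3, a coactivator of CREB that is dephosphorylated to enter the nucleus, had 5 shared sites, all in intron 2 of 14 and 30765 to 54119 bp from its start on chromosome 15. The strongest had summits at 90584005 and 90584003 in a LINE, with scores of 192.7 and 381.5 (ranks 627 and 333). Its place of 451 among all shared sites made it the strongest member site farther than 50 kb from a start. Scores of the other 4 lay between 9.79 and 49.7 in the first list and between 2.90 and 62.0 in the second. CRTC1 and CRTC2, of 98.7 kb and 10.9 kb, had no peak, so CRTC3, of 115.4 kb, was the only coactivator gene with sites. CREB1 had 2 sites, both upstream in intergenic sequence. The one with the lower rank sum scored 39.5 and 41.9 at 61606 bp from the start, and the other 23.1 and 53.5 at 24889 bp. Both ATF1 sites lay in the gene DIP2B, more than 50 kb upstream of ATF1.

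GNAS, which encodes the stimulatory G protein subunit that couples MC1R to the cyclases, had 1 weak site in an intron, 15662 bp from a start on chromosome 20, with scores of 11.4 and 20.1. RAPGEF4 had 3 sites. The one with the lowest rank sum, in intron 9 of 27 and 57386 bp from a start, scored 53.8 and 38.7. Another, in intron 12 of 27, scored lower in replicate 1 (14.1) but higher in replicate 2 (44.2). RAPGEF3, a gene of 24.5 kb, had 1 peak in replicate 1 and no partner for it.

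By position, the member sites were mainly intronic. In the deposited annotation of replicate 1, 86 of the 102 lay in introns (84.3%, 95% Wilson interval 76.0% to 90.1%, counting error only), beside 39.7% of all shared sites and 64.8% of those at genes of at least 100 kb. This interval and those below treat sites as independent. Because 47 of the 102 lay at only 3 genes, they may be too narrow. Intergenic sequence held 9 member sites (8.82%), beside 53.2% of all shared sites and 29.6% at genes of at least 100 kb. Promoters held 4 (3.92%, interval 1.54% to 9.65%), near the 2.52% of all shared sites and the 3.1% at longer genes. The 5′ untranslated exons held 2 (1.96%, beside 0.295% and 0.476%) and a gene end 1 (0.98%, beside 1.06% and 0.348%). The intron can belong to another gene: 80 sites lay inside the span of the member, 16 in the span of another gene or noncoding RNA only, and 6 in none. Repeats held 27 sites (26.5%, interval 18.9% to 35.8%), 11 in LINEs, 9 in LTR elements, 5 in SINEs and 2 in DNA transposons, beside 29.1% at genes of at least 100 kb. No member site was in satellite sequence by the replicate 1 annotation. Satellites held 16.6% of all shared sites but only 1.78% of those at genes of at least 100 kb, to which 0 is near.

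The distance to the TSS was a median of 37873 bp for member sites and 51090 bp for all shared sites. Within 1 kb lay 6 of them, at CREM, PDE4B, PDE4D (3 sites) and PDE7A, and 16 more lay within 10 kb. The first made up 5.88% of member sites (interval 2.72% to 12.2%), beside 3.89% of all shared sites and 4.43% at genes of at least 100 kb. The second made up 15.7% (interval 9.89% to 24.0%), beside 12.8% and 10.7%, so both were near the background. Beyond 100 kb lay 13 (12.7%, interval 7.60% to 20.6%), beside 34.6% of all shared sites and 26.9% of those at genes of at least 100 kb. At the limit of 10 kb, the farthest site inside was at 8926 bp, at PDE4D, and the nearest outside at 10815 bp, at PDE3A. The scores of member sites covered most of each list. Their median percentile was 61.4 in replicate 1 and 74.8 in replicate 2, beside 63.6 and 70.5 over all shared sites. In the top 10% of their list were 18 member sites in replicate 1 (17.6%, interval 11.5% to 26.2%) and 22 in replicate 2 (21.6%, interval 14.7% to 30.5%). These shares were near those of all shared sites, 14.1% and 17.6%, and of sites at genes of at least 100 kb, 14.2% and 20.2%.

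**Figure D5:**
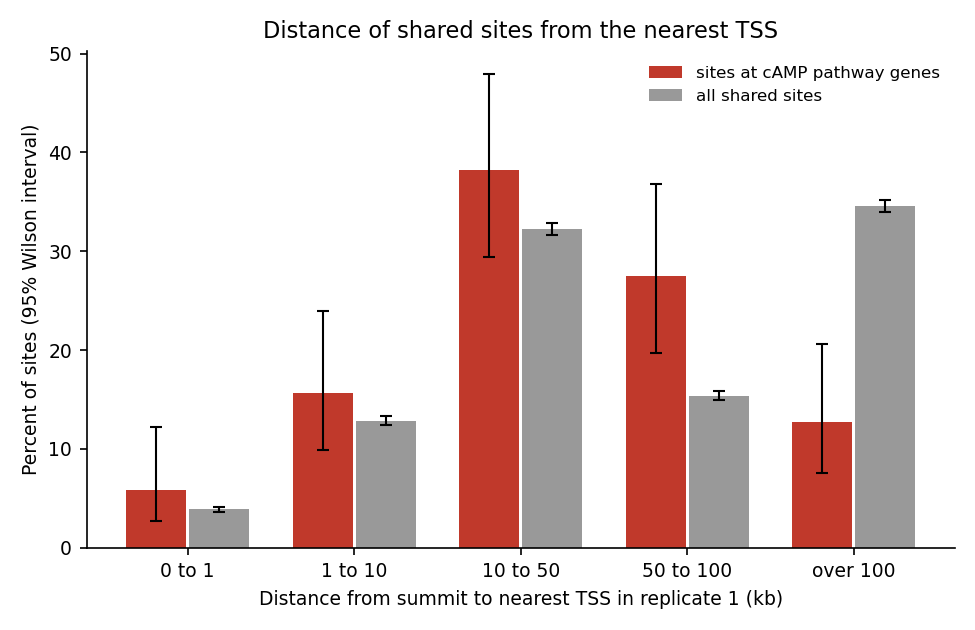
Bars give the percent of shared sites by distance from the nearest TSS in replicate 1, in kb, for the 102 member sites (red) and all 22702 shared sites (grey), with 95% Wilson intervals. The red bar is the lower beyond 100 kb, at 12.7% against 34.6%.

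Peaks without a partner were mostly weaker than shared sites. The 31 of replicate 1 had a median score of 7.52 and the 73 of replicate 2 a median of 6.91, beside 18.0 and 34.9 for shared member sites. The highest of each were at PDE4D, with 42.8 in replicate 1 (rank 5702) and 48.8 in replicate 2 (rank 7562). These lay below the leading shared sites but above the medians of the shared member sites.

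A further 46 genes that act around this pathway were counted the same way. Shared sites were found at 21 (45.7%) and within 10 kb at 8 (17.4%), between the members and the background of all genes. Among genes of at least 100 kb the background shares were 57.1% and 17.6%, both higher than these. The 46 genes mix long and short ones, and the part of length was not tested. Those with a near site were PDE6A, CREB5, AKAP13, PKIB, GNAL, GNAI1, AKAP7 and RAPGEF2, and all but PDE6A and GNAI1 span at least 100 kb. PDE6A, a cGMP phosphodiesterase of rod photoreceptors, had the strongest, in an intron 3220 bp from the start, with scores of 175.7 and 328.4 (ranks 746 and 452). CREB5, a relative of CREB1, had 10 shared sites in all, and the near one, 458 bp upstream of a start, scored 70.4 and 137.7. At AKAP13, which anchors PKA, a promoter site scored 40.6 and 62.0, and at PKIB, a PKA inhibitor, one scored 38.2 and 21.6. At GNAL, a stimulatory G protein subunit of the olfactory system, the near site scored 81.4 and 49.7.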

How the data were processed

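ChIP-seq peak lists of the 2 ChIP samples were analysed. Summits, listed separately for each sample, were annotated with annotatePeaks.pl of HOMER against hg38, per the file headers. The submitters' processing notes name FastQC 0.11.7, cutadapt 2.8, Bowtie2 2.3.5, MACS2 2.1.2 and SAMtools 1.9, with no role or threshold. The peak score and the distance to the TSS were deposited by the authors, and the score's scale is not stated. Scores were used only within their list and began just above 2, so weaker sites are not listed.

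Summits were paired when mutually nearest within 200 bp, tested on simulated data. A member needed to be the deposited gene in both lists, and for a near site both distances had to be within 10 kb. Background shares used the RefSeq protein-coding genes of GRCh38.p14 on the same chromosomes, matched by gene ID, and all 41 members matched. Shares carry Wilson intervals (statsmodels 0.14.6), and no test between conditions was possible with 1 ChIP condition. The members, gene lists and settings were chosen with earlier results of these data known.

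Named were all members with a near site, the best site by rank sum of the 10 leading others, and members without a site. Sites inside a member's span but annotated elsewhere, the 4 promoters printed, and sites and members beyond these were chosen after their values were seen. Alternatives covered pairing distance, score limits, single lists, gene assignment, repeats and TSS distance.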

Additional observations from a re-analysis of the deposited data

How the results depend on the processing

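Of 36 alternatives, 25 kept a count within 1.5 times the main one or a share within its interval, and 11 did not. The cause of the changes was not tested, except that stricter limits leave fewer sites. The alternatives counted members only. Shares of all genes were not recounted at these settings, so how the members compare with them there is not known. Genes with a near site numbered 9 and became 4 among the 5000 highest scores of each list, 0 with summits at the same base, 4 within 1 kb and 20 within 50 kb. Genes with a site at any distance numbered 25 and became 9 among the 5000 highest, 16 with scores at or above the median of each list and 1 at the same base. The 102 sites became 22, 61 and 1 under the same 3 limits. Leaving out a replicate gave 133 to 175 peaks, 27 genes in either case and 11 genes with a near peak in either case. Each single list kept the 9 genes with a near site: replicate 2 alone added ADCY2 and PDE1A, and replicate 1 alone added RAPGEF3 and RAPGEF4. Counting by gene span gave 114 sites, 25 genes and 10 with a near site, where the near start may be that of another gene: PDE11A and PRKAR1B entered and PDE7A left. Leaving out satellite and simple repeats gave 101 sites. The ADCY5 site was lost when summits had to lie within 50 bp. The intron share was 83.1% within 50 bp and 85.2% above the median scores. No paired analysis was possible because the results come from no test, and the peak lists used here hold values of the ChIP samples only, so ChIP was not set against the inputs that carry the same replicate numbers. Depth is unknown, so a gene without a site may hold binding below the listed scores.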

Other observations

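The deposited annotation names the nearest TSS, and 34 of the 114 shared sites inside member spans were therefore given to other genes. Besides those of PRKAR1A and ADCY2, some were among the stronger sites at the pathway. In PDE11A, which has no shared site by name, summits at 177670183 and 177670222 on chromosome 2 lay in intron 14 of 16 and scored 168.1 and 290.4 (ranks 797 and 616), with a noncoding gene start 3139 bp away. In PDE8A, also without one by name, summits at 85099326 and 85099329 on chromosome 15 lay in a SINE in intron 9 of 21 and scored 138.5 and 295.7 (ranks 1144 and 591). In PDE10A, a phosphodiesterase of the striatum, a site in an LTR element scored 128.1 and 93.2. In PDE4B, a site in intron 1 of 14 annotated to a noncoding RNA scored 122.5 and 215.6. In PRKAR2A, which had no peak by name, 2 sites were annotated to IP6K2, one of them in the 3′ untranslated exon with scores of 46.2 and 47.7.

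At PDE8B, summits at 77087223 and 77087224 lay 23 bp from the start of ZBED3, a zinc finger gene, and 508 bp from the first RefSeq start of PDE8B. They scored 10.3 and 34.2. With these counted by span, 25 members held a shared site, the same number as by name but not the same genes: PDE8A, PDE11A and PRKAR2A entered, and ADCY7, ATF1 and CREB1 left.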
